A study of Homo sapiens with 6 samples.

Results

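Binding of the Tandem-Tudor domain (TTD) of UHRF1 was examined at 10 human genes for plasma carrier proteins and for the inter-alpha-trypsin inhibitor family. The genes are TF, TTR, HPX, AHSG, FETUB, AMBP, ITIH1, ITIH2, ITIH3 and ITIH4, chosen by name from the 20033 protein-coding genes of GENCODE release 44 by a rule that uses no TTD value, although earlier results of these data were known when they were chosen. Native mononucleosomes of untreated HepG2 cells, an established hepatoblastoma line, were pulled down with GST-tagged TTD (residues 126 to 280 of human UHRF1) in 2 CIDOP libraries, next to 2 H3K9me2 ChIP libraries and 2 inputs. CIDOP is a pull-down of chromatin with a purified histone-binding domain, used where ChIP has an antibody. The values below come from 1 list of 31569 broad TTD peaks on hg38, which was called on the mean of both TTD replicates. The H3K9me2 and input signals were not analysed here. The list holds positions and widths without a score, so no error between replicates and no depth behind a peak can be given, and a place without a peak may have been below the calling cutoff or have been taken out with blacklisted regions or in the curation by hand. GST-TTD is an isolated domain added to chromatin extracts, and its peaks are not those of full-length UHRF1 in cells.

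UHRF1 is a chromatin protein needed to maintain DNA methylation, and its TTD binds histone H3 tails that carry K9me2/3, with a preference for tails that also carry K4me1, a mark of enhancers and promoter flanks. All 10 genes encode proteins that hepatocytes secrete into the blood. Transferrin (TF) carries iron, transthyretin (TTR) carries thyroxine and retinol-binding protein, and hemopexin (HPX) binds free heme. AHSG and FETUB encode the fetuins A and B, relatives of the cystatins, of which fetuin A inhibits the growth of calcium phosphate crystals. AMBP encodes a precursor that is cut into alpha-1-microglobulin, a lipocalin, and bikunin, the protease inhibitor chain of inter-alpha-trypsin inhibitor. ITIH1, ITIH2 and ITIH3 encode heavy chains that are joined to bikunin and can be transferred to hyaluronan, and ITIH4 encodes a related plasma protein.

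The 10 genes lie at 7 loci. ITIH1, ITIH3 and ITIH4 are neighbours on chromosome 3, with gene starts up to 53.1 kb apart, and AHSG and FETUB are neighbours elsewhere on this chromosome, 22.9 kb apart. Their windows therefore share peaks and are not independent. Each gene has 2 relevant starts, the outermost 5′ end of the GENCODE gene and the TSS of its MANE Select transcript, the transcript that Ensembl and RefSeq use as the reference. These differ by at most 353 bp for 7 genes, by 1630 bp for HPX, by 4430 bp for FETUB and by 34868 bp for TTR. Cover is the percent of the base pairs of a window that lie in TTD peaks.

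The sequences just upstream of the MANE Select TSS are shown for 4 genes, because they stand for the arrangements found at 8 of the 10 starts, with the TSS inside a peak or after the end of one. HPX and ITIH3 have the TSS within a peak, and all of the 250 bases shown lie in it. At AHSG and AMBP the peak ends before these 250 bases, none of which lie in a peak. The sequences are from RefSeq (GRCh38.p14) and are written 5′ to 3′ on the strand of the gene up to the base before the TSS, on chr11:6440988-6441237 (minus strand) for HPX, chr3:52794546-52794795 (plus) for ITIH3, chr3:186612810-186613059 (plus) for AHSG and chr9:114078301-114078550 (minus) for AMBP. Capitals mark matches to the motif letters given after them.
HPX: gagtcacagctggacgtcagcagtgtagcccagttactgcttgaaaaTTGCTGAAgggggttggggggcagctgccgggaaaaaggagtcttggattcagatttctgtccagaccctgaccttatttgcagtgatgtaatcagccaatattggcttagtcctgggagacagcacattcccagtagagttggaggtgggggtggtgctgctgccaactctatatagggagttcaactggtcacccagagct
ITIH3: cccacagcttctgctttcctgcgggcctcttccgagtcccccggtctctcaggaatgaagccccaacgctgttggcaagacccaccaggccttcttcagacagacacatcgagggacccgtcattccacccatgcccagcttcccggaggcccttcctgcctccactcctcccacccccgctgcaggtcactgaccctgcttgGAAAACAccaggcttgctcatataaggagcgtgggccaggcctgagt
AHSG: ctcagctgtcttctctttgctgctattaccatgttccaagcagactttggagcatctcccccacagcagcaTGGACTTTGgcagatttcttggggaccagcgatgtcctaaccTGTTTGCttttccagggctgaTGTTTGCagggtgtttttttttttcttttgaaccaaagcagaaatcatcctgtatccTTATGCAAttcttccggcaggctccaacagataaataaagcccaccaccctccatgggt
AMBP: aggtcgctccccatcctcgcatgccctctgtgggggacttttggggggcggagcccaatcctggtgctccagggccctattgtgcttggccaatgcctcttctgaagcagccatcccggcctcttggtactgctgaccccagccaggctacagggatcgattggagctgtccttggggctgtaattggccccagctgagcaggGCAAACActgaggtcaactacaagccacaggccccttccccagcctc

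These motifs were searched on both strands in the 250 bases upstream of 35116 RefSeq starts, and for the members at the 7 entries placed at the MANE Select TSS, those of TF, HPX, AHSG, FETUB, AMBP, ITIH3 and ITIH4. TTR and ITIH2 were not in the table. The letters TGTTTNC, which are part of the FOXA motif, were found in 5 of these 7 promoters and in 15.5% of all. The letters TTGCNNAA for C/EBP factors were found in 4 of 7 and in 9.05% of all. A match to CAAAGNNCA, the letters used for HNF4, was present in AHSG alone among the 7, and in 4.44% of all promoters. Neither the TATA box letters TATAAA nor the HNF1 motif, searched as GTTAAT, occurred in the 7 promoters, against 10.7% and 6.23% of all. In the 4 sequences shown no matches overlap each other. AHSG has 4 matches, and HPX, ITIH3 and AMBP have 1 each, so that matches occur in promoters within peaks and outside of them. The 35116 starts were not matched to the members in base composition, and its part in these shares was not tested. A match of letters does not show that a factor binds there.

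TTD peaks were found close to the starts of all 10 genes. Within 2.5 kb of the gene's 5′ end, 10 of 10 genes had a peak, whereas 16.9% of all protein-coding genes did. The median cover of this 5 kb window was 39.1% for the 10 genes and 0% for all genes, and the means were 44.2% and 5.30%. With the MANE Select TSS, 9 of 10 genes had a peak in the window, against 17% of the genes that have such a transcript (19061), and the median was 37.5%. The exception was FETUB, where the nearest peak ended 5049 bp upstream of this TSS. Within 100 kb of the 5′ end, 10 of 10 genes had a peak, as did 77.9% of all genes, so that this count is close to what most genes show. The cover of these larger windows was 10.1% in the median of the 10 genes and 2.00% in the median of all genes.

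**Figure D1:**
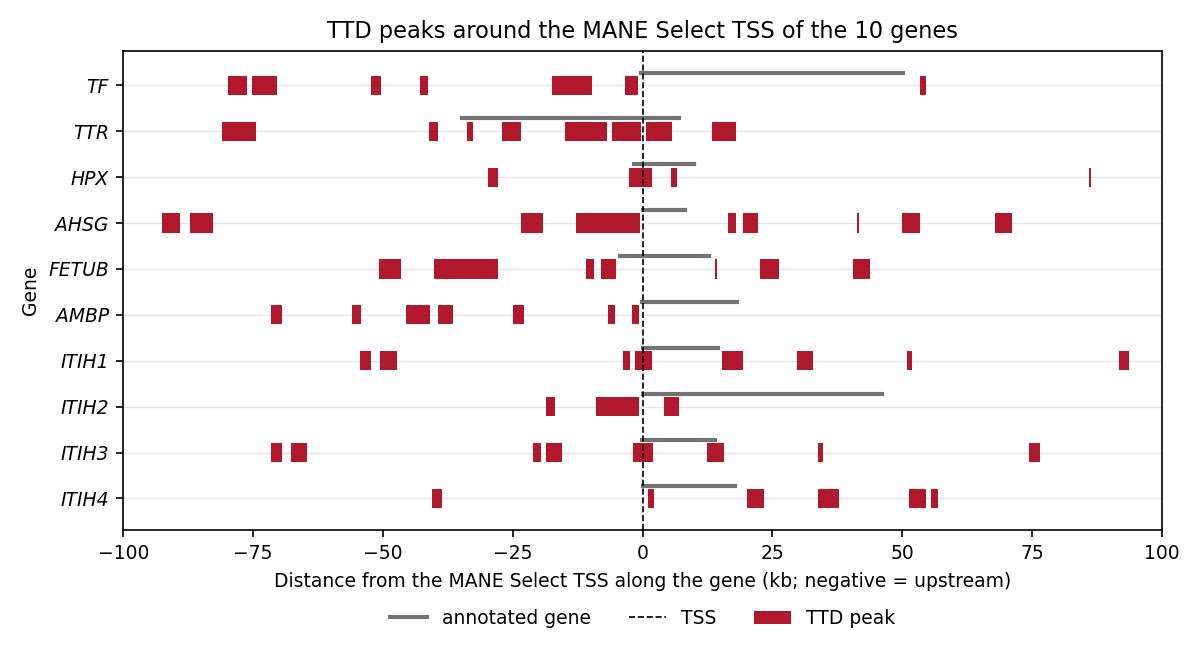
Positions of the TTD peaks (red boxes) within 100 kb of the MANE Select TSS (dashed line) of each of the 10 genes, in kb along the direction of transcription, with the annotated GENCODE gene as a grey line. The peaks of TF and AMBP lie almost all upstream, while TTR has peaks on both sides of its TSS. Rows of neighbouring genes repeat the same peaks.

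The bodies of the genes were covered less regularly than their starts. A peak was present in the gene body of 6 of the 10 genes, against 34.2% of all protein-coding genes. TTR had the largest cover with 56.4% of its gene, followed by HPX with 39.5%, ITIH3 with 26.0%, ITIH1 with 12.1%, ITIH2 with 6.04% and ITIH4 with 5.58%. No peak was listed within TF, AHSG, FETUB and AMBP. The bodies range from 8.26 kb for AHSG to 50.6 kb for TF, and their median length of 17.5 kb is below the 27.5 kb of all genes.

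**Figure D2:**
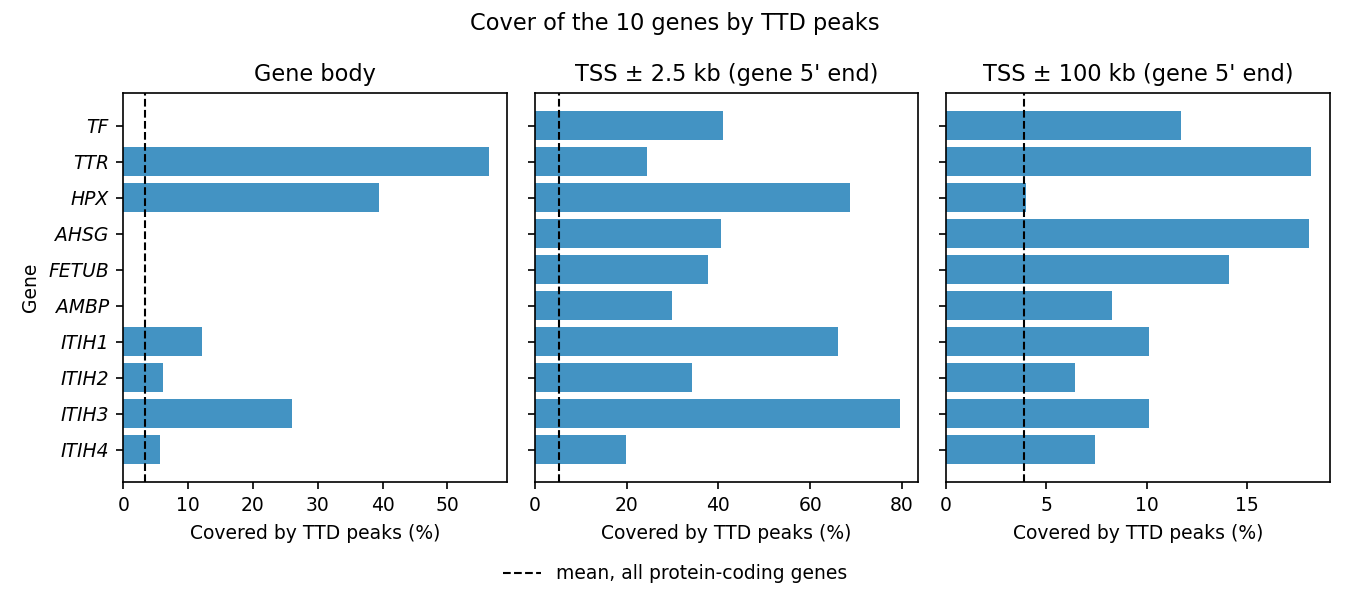
Percent of the gene body, of the 5 kb around the gene's 5′ end and of the 200 kb around it that lies in TTD peaks, with 1 bar for each gene; the dashed lines give the means over 20033 protein-coding genes (3.39%, 5.30% and 3.91%). All 10 bars of the middle panel exceed the mean, while 4 genes have no cover in the body.

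At most of these genes the TSS itself was not in a peak. The MANE Select TSS of 3 genes, HPX, ITIH1 and ITIH3, lay inside one, and 2.17% of all genes showed this. At 5 further genes, TF, TTR, AHSG, AMBP and ITIH2, a peak lay in the 2.5 kb upstream and ended before the TSS, an arrangement found for 10.3% of all genes. The last covered base was 227 bp before the TSS in TTR, 470 bp in AHSG, 621 bp in AMBP, 786 bp in ITIH2 and 803 bp in TF. The upstream peaks of these 5 genes differ in width, from 1500 bp at AMBP to 12440 bp at AHSG. The distances of their ends are limited by the arrangement itself, which requires a peak in the 2.5 kb upstream. ITIH4 was the single gene with a peak in the window downstream of the TSS alone, from 1122 to 2111 bp.

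**Figure D3:**
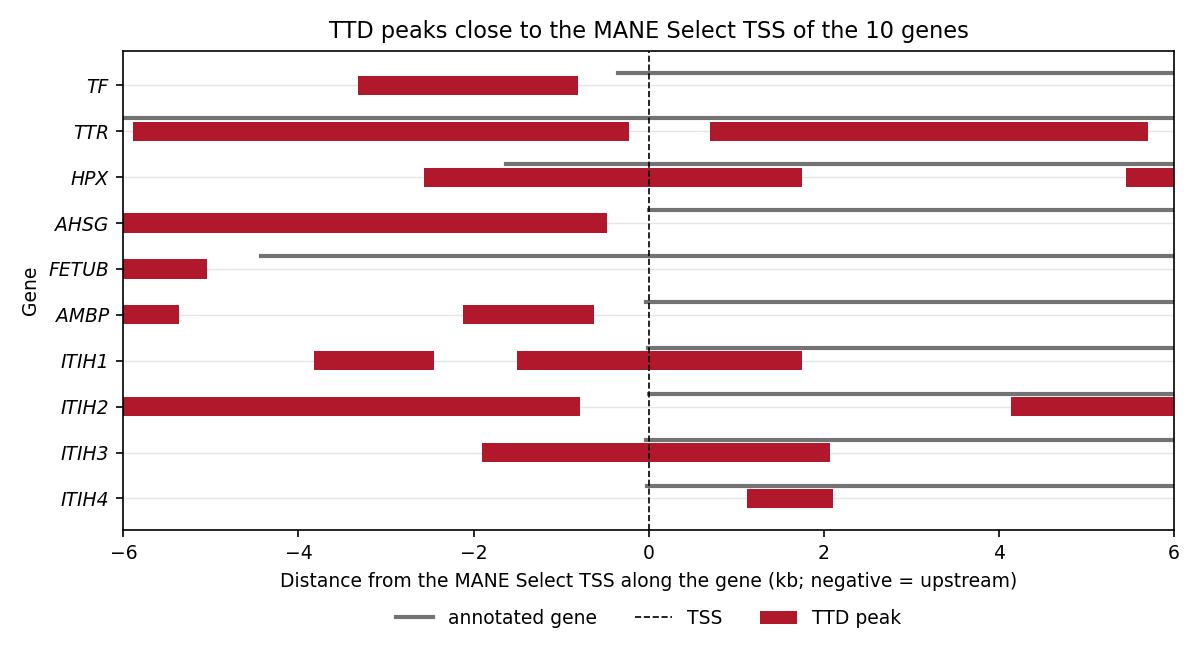
The 6 kb on each side of the MANE Select TSS (dashed line) of the 10 genes, with TTD peaks as red boxes and the annotated gene as a grey line, in kb along the direction of transcription. The peaks of TF, TTR, AHSG, AMBP and ITIH2 stop between 227 and 803 bp before the TSS, and those of HPX, ITIH1 and ITIH3 run across it.

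Averaged in bins of 250 bp, the cover of the 10 genes was 80.0% between 1250 and 1001 bp upstream of the MANE Select TSS, where 8 genes were covered. It was 30% in the first 250 bp from the TSS onwards, where 3 genes were covered, and 50.0% between 1250 and 1499 bp downstream. The profile of all genes has the same order at a lower level, with 7.71%, 2.15% and 4.52% in these bins. Further into the genes, between 2500 and 2749 bp, the cover of the 10 genes was 10.0% and that of all genes 5.45%.

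**Figure D4:**
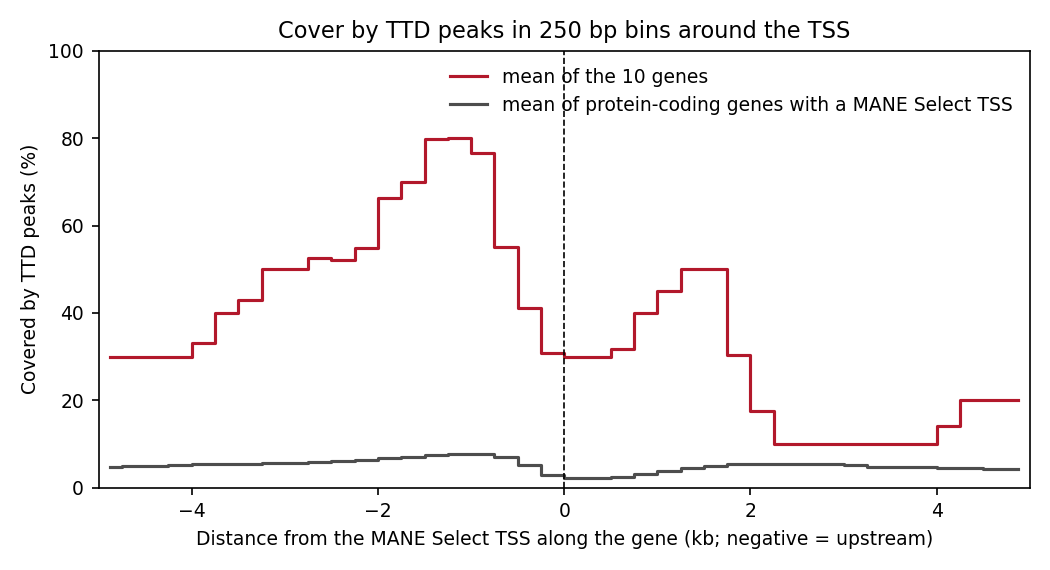
Mean cover by TTD peaks in 250 bp bins from 5 kb upstream to 5 kb downstream of the MANE Select TSS, for the 10 genes (red) and for 19061 protein-coding genes (grey). The red line has a maximum of 80.0% upstream, falls to 30% at the TSS and reaches 50.0% downstream; the grey line stays under 8%.

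Of the carrier genes TF, TTR and HPX, TTR had the highest cover of the gene body and of the 100 kb on each side, while HPX had more cover around the start. TTR (chromosome 18, 31557009 to 31598833, plus strand) contains 5 peaks, of 1220, 3660, 8060, 5660 and 5000 bp in this order along the gene. The last 3 of them extend from position 31577021 to 31597580, and 91.1% of these 20.6 kb is covered. The MANE Select TSS at 31591877 is in a gap of 930 bp between the last pair of peaks. The MANE Select transcript of 6.95 kb is covered to 72.0%, and its exons 2 and 3 lie entirely in a peak, while exons 1 and 4 are outside. The 5 kb around this TSS is covered to 81.4%, and 0.614% of genes had as much cover or more. Around the outermost 5′ end, 34868 bp upstream, the value was 24.4% and came from the peak of 1220 bp. The other 3 peaks within 100 kb lie outside the gene, 1 of them in an intron of DSG2, the gene of a desmosomal cadherin.

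HPX (chromosome 11, 6431049 to 6442617, minus strand) had a peak of 4320 bp, from 6439231 to 6443550, which reaches from 2563 bp upstream to 1756 bp downstream of the MANE Select TSS. Exons 1 to 4 of 10 are within it. A second peak of 1180 bp lies in an intron. The 5 kb around the MANE Select TSS is covered to 85.1%, the highest value of the 10 genes, and 0.488% of genes reached it. In contrast, the 100 kb on each side were covered to 4.0%, with 4 peaks in all. The mean of all genes was 3.91% and their median 2.00%, and 31.5% of genes had as much cover as HPX or more.

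TF (chromosome 3, 133746040 to 133796641, plus strand) showed the opposite arrangement. None of its 50.6 kb was covered, but 6 peaks lie in the 100 kb upstream of its MANE Select TSS and cover 22.2% of them. The widest measures 7680 bp and lies from 133728881 to 133736560, and the nearest measures 2520 bp. These 6 peaks touch no protein-coding gene. Downstream there is 1 peak of 1180 bp, beyond the end of TF and within SRPRB, which encodes a subunit of the signal recognition particle receptor and overlaps the 3′ part of TF in the annotation. The window around the 5′ end was covered to 41.0%, and that around the MANE Select TSS to 34.0%.

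The fetuin genes share a locus of 223 kb with 9 peaks, which cover 16.2% of it. AHSG (chromosome 3, 186613060 to 186621318, plus strand) is preceded by the widest peak near any of the 10 genes, 12440 bp from 186600151 to 186612590. In the whole list, 1.17% of the peaks are as wide or wider. It ends 470 bp before the TSS, and no further peak follows for 17.0 kb, which includes all of AHSG. FETUB (chromosome 3, 186635969 to 186653141, plus strand) has a peak of 2920 bp that ends 619 bp before its 5′ end, and no peak in its body, so that the window around the 5′ end is covered to 37.6% and the window around the MANE Select TSS to 0%. Between the genes lies a further peak of 1440 bp. Within 100 kb, AHSG had 9 peaks and 18.1% cover, and FETUB 7 peaks and 14.1%.

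AMBP (chromosome 9, 114060127 to 114078328, minus strand) had 7 peaks within 100 kb, all of them upstream. They measure between 1290 and 4710 bp and cover 16.5% of the upstream 100 kb. Neither the gene nor the 100 kb downstream of its TSS contained a peak. The nearest peak, of 1500 bp from 114078921 to 114080420, gave the window around the 5′ end a cover of 30%. It is narrower than the median TTD peak of 2250 bp, as is the next one.

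The locus of the 3 heavy chain genes on chromosome 3 has 8 peaks over 253 kb, of which 6 lie within 100 kb of each of the genes and 4 in or between them. ITIH1 (52777595 to 52792068, plus strand) has a peak of 3250 bp over its TSS, with exons 1 to 4 of 22 inside, and 1 more peak upstream that reaches into the window. ITIH3 (52794768 to 52808799, plus strand) has a peak of 3980 bp over its TSS. This peak begins 823 bp after the annotated end of ITIH1 and contains exons 1 to 4 of ITIH3. A second peak of 3260 bp contains its exons 20 to 22 and extends past the 3′ end. The windows around the 5′ ends were covered to 66.1% in ITIH1 and 79.6% in ITIH3, and as much cover was found at 1.27% and 0.679% of all genes. ITIH4 (52812962 to 52830688, minus strand) is transcribed towards ITIH3 and had a single peak of 990 bp, which contains exon 2 of 24. Its window was covered to 19.8%, the lowest value of the 10 genes, and 11.4% of genes had this cover or more.

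ITIH2 (chromosome 10, 7703316 to 7749520, plus strand) has the lowest number of peaks within 100 kb, with 3. A peak of 8200 bp, from 7694331 to 7702530, ends 786 bp before its TSS, and a peak of 2790 bp within the gene contains exon 4 of 21. The window around the TSS was covered to 34.3%, and the 100 kb on each side to 6.41%. The next gene upstream is ITIH5, a relative that is expressed in many tissues, whose TSS is 36.3 kb away. ITIH5 had no peak in its body or in its TSS window.

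In all, 46 different peaks lie within 100 kb of the 10 genes, 15 of them within 100 kb of more than 1 gene. They measure from 400 to 12440 bp with a median of 2940 bp, against 2250 bp for the whole list. Of these peaks, 26 touch no protein-coding gene, 20 touch at least 1, and 8 overlap a coding exon of a MANE Select transcript. In the whole list, 47.4% of the peaks touch no protein-coding gene, against 56.5% here, and 8.56% overlap such a coding exon, against 17.4% here. Every exon of the 10 MANE Select transcripts that touches a peak lies in it completely. Fragments of 150 bp, about the length of a nucleosome, were counted where at least 50% of their length lay in peaks. The bodies of the 10 genes hold 248 of them, of which 158 belong to TTR. The annotated body of TTR begins 34868 bp upstream of its MANE Select TSS, and this part also counts as upstream cover. More of the upstream than of the downstream 100 kb was covered at 8 of 10 genes, with medians of 14.2% and 7.82%. ITIH1 and ITIH4 were the exceptions. Of the 14866 genes with a peak in this range, 52.4% had more cover upstream.

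The binding at the starts was not shared by most of the neighbouring genes. The windows of 100 kb contain parts of 35 other protein-coding genes. Of these, 13 had a peak in the gene body, where 34.2% of all genes have one, and 1 had a peak within 2.5 kb of its 5′ end, against 16.9% of all genes. This gene, KIF12, encodes a kinesin and lies upstream of AMBP, and its window was covered to 12.0%. With the MANE Select TSS, which 30 of the neighbours have, HRG was added with a cover of 61.3%. HRG encodes histidine-rich glycoprotein, a plasma protein made in liver, and lies next to FETUB.

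The DNA around the starts of the 10 genes is poor in CpG. In 1 kb around the MANE Select TSS, the CpG observed/expected ratio was 0.201 in the median of the 10 genes and 0.729 in that of all genes. AHSG had the lowest ratio with 0.111 and TF the highest with 0.570. Of all genes, 5869 have a ratio no higher than that of TF, and 13.6% of these had a peak in the window around the MANE Select TSS, against 9 of 10 here. TF stands apart from the other members in this ratio, and with the limit at the next highest member, ITIH4 with 0.284, the share was 15.0% of 3404 genes. Of the 5869 genes, 5.25% had the MANE Select TSS inside a peak, against 2.17% of all genes. A peak in the 2.5 kb upstream with the TSS outside was found at 5.21% of them, against 10.3% of all genes. The GC content was 51.8% in the median of the 10 genes and 61.5% in that of all genes. The part of base composition in the position of the peaks was not tested.

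Related genes named in a separate list of 20 were covered unevenly. A peak within 2.5 kb of the 5′ end was present at 5 of the 20, against 16.9% of all protein-coding genes. The median cover of the 20 in this window was 0%, as for all genes. The list mixes plasma proteins with receptors, enzymes and other relatives, so these values are not those of the genes most like the members. Of the genes listed with transthyretin, ALB was covered to 100% in this window and RBP4, the retinol carrier, to 43.8%. SERPINA7, which encodes thyroxine-binding globulin, had no peak there. HP, which encodes the haemoglobin-binding protein haptoglobin, was covered to 100%. No peak was found in the TSS windows of LRP1 and CD163, the receptors for hemopexin and haptoglobin complexes, or of HMOX1, the heme-degrading oxygenase. Of the transferrin relatives and receptors, LTF (lactoferrin) had 29.8% at its 5′ end and 0% at the MANE Select TSS, and MELTF, TFRC and TFR2 had no peak in this window. The type 3 cystatin genes HRG and KNG1 had no peak within 2.5 kb of the 5′ end. Around the MANE Select TSS, HRG was covered to 61.3% and KNG1 to 0%. Both have peaks in the body, which cover 19.6% and 10.3%. Among the relatives and partners of the heavy chains, neither ITIH5 and ITIH6 nor TNFAIP6, which encodes the enzyme that transfers heavy chains, nor HAS2, a hyaluronan synthase, had a peak in body or TSS window. Of the lipocalins, ORM2 was covered to 48.2% at its start, whereas ORM1 and LCN2 were not covered there. The deposited positions cannot separate reads of near-identical copies, and ORM1 and ORM2 are such copies.

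A list of start positions was compiled for the study from public expression data of HepG2 cells and liver. TF, TTR, HPX, AMBP and ITIH4 are in it as genes with lower expression in HepG2 cells, and the other members are not in it. The list was limited to genes with a high expression and a large difference, so that a gene outside of it may still differ. Ordered from the lowest ratio of HepG2 to liver, they are ITIH4, HPX, TTR, TF and AMBP. The windows of 2.5 kb on each side of the 88 positions listed for them contained a peak in 56 cases (63.6%). Over the 1241 positions of 64 genes listed with lower expression in HepG2 cells, members included, 41.1% of the windows contained a peak, and their mean cover was 21.4%. The mean cover was 69.1% for HPX, with a peak at 8 of 9 positions, and 55.5% for TTR, with a peak at 25 of 25. It was 18.5% for AMBP (12 of 15 positions), 9.85% for ITIH4 (8 of 13) and 4.38% for TF (3 of 26). The order by cover changes with the start used, since around the 5′ end of the gene TF has more cover than AMBP, TTR and ITIH4, so no order of cover was set against the expression ratios. Positions of 1 gene share its expression value and often the same peak, so they are not replicates.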

How the data were processed

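TTD CIDOP, H3K9me2 ChIP and input libraries of HepG2 cells were made in 2 replicates each (6 libraries). The authors used Trimmomatic 0.38 for trimming and HISAT2 2.2.1 for mapping to hg38, computed RPKM coverage in 10 bp bins with deepTools 3.3.2 and averaged the TTD replicates. MACS2 2.1.1 was used for broad peaks, blacklisted regions were taken out and the peaks were curated by hand. The authors deposited 31569 pooled peaks as positions and widths in bp, without score. The peak list does not hold the depth per library, no input or copy number correction is named for the peaks, and replicate error cannot be given.

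Cover, peak counts and distances were computed on hg38 with GENCODE 44 for gene bodies, 2.5 kb and 100 kb on each side of the gene's 5′ end, and the MANE Select TSS. An overlap of 1 bp counted. No test was made, as there is 1 pooled list. The interval steps were tested on simulated data. The genes and lists were chosen with earlier results of these data known. All 10 members are named, related genes come from a list of 20, and other genes are named only where they are neighbours with a peak in the body or TSS window, not all of which are named. Alternatives were wider peaks, other windows, starts and overlaps, and joined peaks. Scripts ran in Python 3.11.15 with numpy 2.4.6, samtools 1.23.1 read the genome and figures were drawn in matplotlib 3.10.9.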

Additional observations from a re-analysis of the deposited data

How the results depend on the processing

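No paired analysis was possible because the replicates were pooled before peaks were called, and for the same reason no replicate could be left out. The counts of members with a peak in the TSS window, in the body and within 100 kb were 7 to 10, 5 to 6 and 10 under the alternatives tried. Over all protein-coding genes, the shares under the same alternatives were 7.29% to 24.9%, 20.5% to 34.2% and 53.1% to 82.4%. The lowest count of 7, where all genes had 7.29%, was reached with narrow peaks (under 2250 bp, the median) left out, where TTR (at its 5′ end), AMBP and ITIH4 lost their peak. With these wider peaks, 26 in place of 46 peaks remained within 100 kb of the members, and the median cover of the gene bodies was 3.02% in place of 5.81%. The body cover of ITIH4 was then 0% in place of 5.58%, that of HPX 29.3% in place of 39.5% and that of TTR 53.5% in place of 56.4%. The body covers of ITIH1, ITIH2 and ITIH3 stayed the same. With 1 kb on each side of the TSS, the median cover of the TSS windows was 23.5%, and with 50 kb in place of 100 kb the median cover around the genes was 12.8%. The start chosen mattered most for TTR (24.4% and 81.4%) and FETUB (37.6% and 0%), and for TF the mean over listed start positions was 4.38% in place of 41.0%. The percent of all genes with a peak in the TSS window was 17.5% on autosomes and 12.8% for genes of every type. The limit of the CpG ratio at the next highest member was added after seeing the data.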

Other observations

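Some of the peaks near the members lie in other genes. In the heavy chain locus on chromosome 3, NEK4, a kinase gene upstream of ITIH1, contains 2 peaks of 2160 and 3140 bp, both in introns, which cover 8.48% of it. STIMATE, a gene near ITIH4, has 1 intronic peak of 2010 bp and a cover of 3.28%. None of these peaks is within 2.5 kb of the start of the gene that contains it. TRIM3, next to HPX, is covered to 8.12% by 1 peak in an intron, and DSG2, upstream of TTR, to 12.8% by 1 peak. HRG differs from these genes, as its peak of 3530 bp contains exon 1 of the MANE Select transcript and its TSS.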
